A study of Cyprinus carpio with 18 samples.

Results

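Apolipoproteins and the microsomal triglyceride transfer protein (MTP) are the protein parts with which lipid is packed into lipoproteins and carried out of a cell. The genes described here are 5 of the 90808 features in the deposited table of common carp, Cyprinus carpio. They were chosen by their NCBI GeneIDs. LOC109108036 and LOC109112641, symbols that hold the GeneID, are annotated as apolipoprotein B-100 (apoB), GeneID 109108977 as the large subunit of MTP, GeneID 109058451 as apolipoprotein Eb (apoEb) and GeneID 109074514 as apolipoprotein A-I (apoA-I). Of the 90808 features 69265 passed the filter on low counts and were tested, and all 5 genes were among them.

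The RNA came from wild-type carp of the FFRC No.2 strain, a farmed variety bred from Jian, Huanghe and Heilongjiang carp parents, whose eggs came from natural spawning. The study followed 6 stages with 3 libraries each. Embryos were taken 2 hours after fertilization (cleavage), 6 hours after it (blastocyst), 12 hours (gastrulation), 20 hours (organ formation) and 64 hours (hatching), and larvae 1 day after they hatched. The protocols in the labels pool the RNA of each stage before library construction (strand-specific, rRNA-depleted), and nothing says that the 3 libraries came from separate spawnings. A p-value here reflects only how far such libraries spread, which may be technical.

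In fish embryos the lipid store is the yolk. The yolk syncytial layer, a multinucleate layer at the yolk surface, packs yolk lipid into apoB-containing lipoproteins and releases them to the embryo, and liver and intestine take up lipoprotein secretion later. ApoB is the non-exchangeable scaffold of these particles, MTP loads lipid onto it in the endoplasmic reticulum, and apoE and apoA-I are exchangeable proteins, apoE a ligand of receptors of the LDL receptor family and apoA-I the main protein of high-density lipoprotein. Carp is a tetraploid, so that most zebrafish genes have a pair of carp copies.

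Libraries held 16326813 counts (cleavage replicate 3) to 43270557 counts (gastrulation replicate 2). Levels are CPM, that is counts relative to a common library size, after TMM scaling in edgeR, which corrects library totals for composition. Larva replicate 3 stood apart. Its mean correlation with the other larva libraries was 0.947, against 0.962 and 0.964 for larva replicates 1 and 2, and 11.3% of its 48291 features at 1 CPM or more lay 2-fold or further from the mean of the other libraries of its stage. In the other 17 libraries this share was 1.17% to 8.93%. The changes of the 5 genes into the larva are therefore given with and without it, and larva means and shares include it. In whole embryos, fewer cells of a type and less RNA per cell cannot be told apart. How reads that fit several copies of a duplicated gene were counted was not found in the sources used here, and values of near-identical copies are uncertain for that reason.

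All 5 genes were at 1.48 CPM or less in every cleavage library and at 189 CPM or more in every gastrulation library, and after gastrulation they parted into 2 patterns. ApoEb and MTP were highest at gastrulation and fell by organ formation. ApoA-I and both apoB copies rose further by organ formation, and their change in hatching minus organ formation did not pass the test. Among all 6 stages every one of the 5 genes differed in edgeR's quasi-likelihood test, with adjusted p from 3.3e-20 for apoEb to 9.0e-10 for apoB LOC109108036. So did 93.7% of all features tested, so that this count sets the genes apart in no way.

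From stage to stage the share of features that changed was large, and the counts of these genes are read against it. A gene is said to have risen or fallen where the Benjamini-Hochberg adjusted p of edgeR's test was under 0.05. In blastocyst minus cleavage 3 of the 5 genes rose and none fell, beside 15.8% of features that rose and 6.52% that fell. In gastrulation minus blastocyst all 5 rose, beside 44.4% that rose and 22.3% that fell. In organ formation minus gastrulation 3 rose and 2 fell, beside 28.1% and 19.8%. In hatching minus organ formation none rose and MTP fell, beside 17.4% and 12.2%. In larva minus hatching none rose, apoEb and apoA-I fell, and 5.32% of features rose and 6.13% fell.

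**Figure D1:**
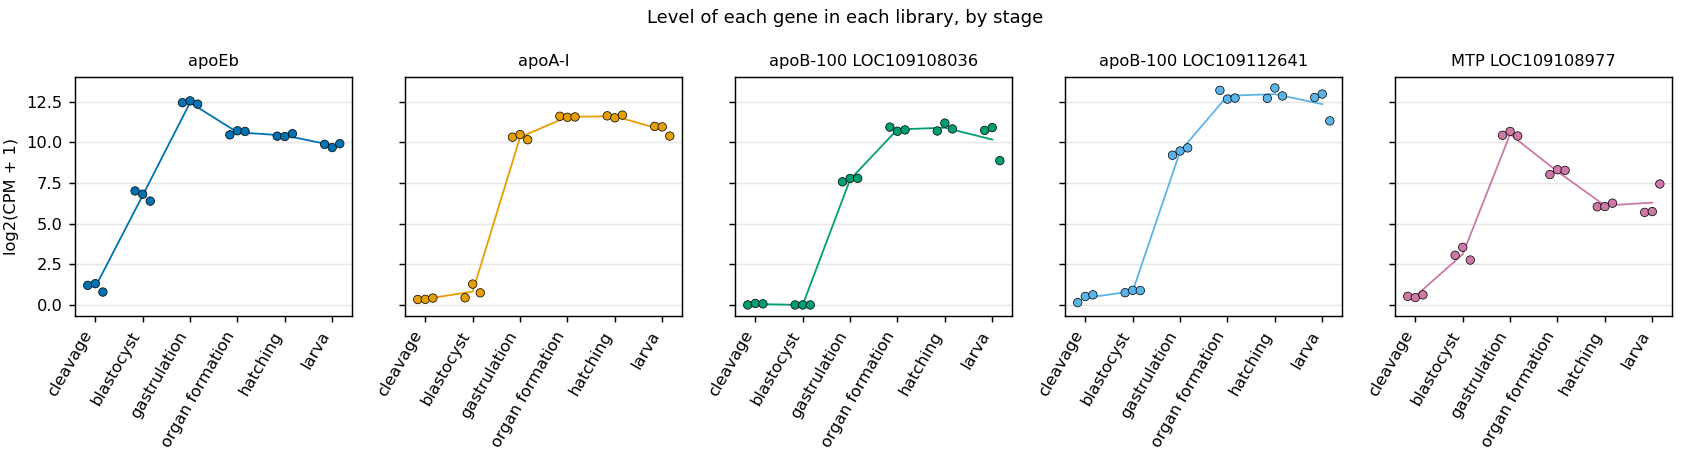
Level of each of the 5 genes as log2(CPM + 1) in each of the 18 libraries, with stages in order of time and a line through the stage means. ApoEb and MTP peak at gastrulation, and apoA-I and both apoB copies are at similar levels at organ formation and hatching. ApoA-I is lower in the larva. Larva replicate 3 (rightmost point) is low for both apoB copies and high for MTP.

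ApoB LOC109112641, by its annotation a scaffold of lipoproteins, had 0.105, 0.436 and 0.537 CPM in the cleavage libraries and 0.686, 0.864 and 0.846 CPM at blastocyst. At gastrulation it had 591, 707 and 809 CPM, at organ formation 9403, 6482 and 6768 CPM, at hatching 6695, 10400 and 7394 CPM and in the larva 6936, 8027 and 2555 CPM. The gastrulation libraries lay above every earlier library and below every later one, while organ formation, hatching and the larva overlapped. The log2 change was 9.77 (SE 0.51, adjusted p = 2.2e-10) in gastrulation minus blastocyst and 3.43 (SE 0.36, adjusted p = 1.5e-06) in organ formation minus gastrulation, where the mean was 10.8 times as high. Neither blastocyst minus cleavage (log2 change 1.3, SE 0.71, adjusted p = 0.21) nor the later steps passed the test. In DESeq2 and in the edgeR fit without larva replicate 3 the first of these passed, with adjusted p of 0.02 and 0.034. Larva minus hatching gave a log2 change of -0.48, and of -0.15 (SE 0.20, adjusted p = 0.83) without larva replicate 3.

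The other apoB copy, LOC109108036, went through the same steps at a lower count. Its cleavage libraries held 0, 2 and 1 counts and its blastocyst libraries held none. At gastrulation it had 189, 219 and 220 CPM, at organ formation 1961, 1642 and 1739 CPM, at hatching 1662, 2323 and 1813 CPM and in the larva 1707, 1918 and 468 CPM. Gastrulation was at least 8833-fold higher than blastocyst, taking 3 counts for the 3 empty libraries as the floor (adjusted p = 1.6e-08). Gastrulation over cleavage gave a ratio of 6303, with a 95% interval of 2157 to 30570 that covers counting error only. Organ formation minus gastrulation gave a log2 change of 3.09 (SE 0.41, adjusted p = 4.4e-05). Hatching, organ formation and larva libraries overlapped, and the changes between them did not pass the test (log2 change 0.12 and then -0.50, adjusted p = 0.86 and 0.50). Without larva replicate 3 larva minus hatching was -0.11 (SE 0.14, adjusted p = 0.79).

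MTP, GeneID 109108977, which lipidates apoB, had 0.444, 0.369 and 0.537 CPM at cleavage and 7.31, 10.7 and 5.78 CPM at blastocyst. It then had 1384, 1630 and 1343 CPM at gastrulation, 259, 318 and 309 CPM at organ formation, 64.7, 65.3 and 75.7 CPM at hatching and 50.8, 52.6 and 173 CPM in the larva. The libraries of cleavage, blastocyst, gastrulation, organ formation and hatching did not overlap with those of any other of these stages. In the larva replicates 1 and 2 lay below hatching and replicate 3 lay above it. MTP rose by a log2 change of 4.15 (SE 0.57, adjusted p = 1.1e-04) in blastocyst minus cleavage and of 7.52 (SE 0.48, adjusted p = 2.8e-09) in gastrulation minus blastocyst. It fell by 2.30 on the log2 scale (SE 0.37, adjusted p = 1.3e-04) in organ formation minus gastrulation and by 2.11 (SE 0.37, adjusted p = 6.0e-04) in hatching minus organ formation. Larva minus hatching gave a log2 change of 0.42 (SE 0.36, adjusted p = 0.57), and of -0.43 (SE 0.16, adjusted p = 0.13) without larva replicate 3.

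A second gene annotated as MTP large subunit, LOC109108963, followed GeneID 109108977 closely. It had 1134, 1246 and 1030 CPM at gastrulation, 183, 222 and 201 CPM at organ formation, 47.8, 55.4 and 53.4 CPM at hatching and 47.2, 51.2 and 153 CPM in the larva. It was the gene most like MTP among 22537 named genes (Pearson's r of log2(CPM + 1) 0.993 over the 18 libraries). Within a library the 2 copies had a log2 ratio of counts, GeneID 109108977 over LOC109108963, of 0.35 ± 0.06 at gastrulation, 0.54 ± 0.06 at organ formation, 0.39 ± 0.14 at hatching and 0.10 ± 0.07 in the larva (SD, n = 3 libraries). The larva libraries lay below all libraries of these other stages, and the organ formation libraries lay above those of gastrulation. These differences were not tested.

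ApoEb, GeneID 109058451, a receptor ligand on lipoproteins, had the highest CPM of the 5 at cleavage, blastocyst and gastrulation. It had 1.31, 1.48 and 0.733 CPM at cleavage and 128, 111 and 82.6 CPM at blastocyst. It had 5555, 6004 and 5223 CPM at gastrulation, 1409, 1677 and 1629 CPM at organ formation, 1331, 1312 and 1480 CPM at hatching and 939, 819 and 966 CPM in the larva. Only organ formation and hatching overlapped. The log2 change was 6.46 (SE 0.19, adjusted p = 9.8e-16) in blastocyst minus cleavage, where the mean was 91.6 times as high, and 5.70 (SE 0.17, adjusted p = 8.0e-17) in gastrulation minus blastocyst. It was -1.83 (SE 0.14, adjusted p = 6.5e-10) in organ formation minus gastrulation, -0.19 (SE 0.14, adjusted p = 0.33) in hatching minus organ formation and -0.60 (SE 0.14, adjusted p = 0.0066) in larva minus hatching. Larva replicate 3 lay with the other larva libraries for this gene, and without it the last change was -0.67 (SE 0.15, adjusted p = 0.0069). The last fall was lost when the counts were scaled by the denominators of the deposited RPKM (reads scaled to gene length and library size), with a log2 change of -0.52 and adjusted p = 0.094; over all alternatives this adjusted p ran from 0.0037 to 0.13.

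ApoA-I, GeneID 109074514, the HDL protein, had 0.261, 0.268 and 0.342 CPM at cleavage and 0.355, 1.43 and 0.677 CPM at blastocyst. It had 1278, 1425 and 1144 CPM at gastrulation, 3117, 2982 and 3027 CPM at organ formation, 3169, 2917 and 3269 CPM at hatching and 2018, 1980 and 1338 CPM in the larva. Organ formation and hatching overlapped, the larva lay below both, and larva replicate 3 lay within the range of gastrulation. The log2 change was 10.61 (SE 0.31, adjusted p = 9.8e-16) in gastrulation minus blastocyst, 1.25 (SE 0.20, adjusted p = 3.5e-05) in organ formation minus gastrulation and -0.81 (SE 0.20, adjusted p = 0.011) in larva minus hatching. Without larva replicate 3 the last was -0.66 (SE 0.18, adjusted p = 0.027), and without hatching replicate 3 it was -0.78 with adjusted p = 0.057. Blastocyst minus cleavage also passed (log2 change 1.51, SE 0.43, adjusted p = 0.016), from 15, 58 and 28 counts at blastocyst against 10, 8 and 7 counts at cleavage. That call was lost without blastocyst replicate 2 (log2 change 0.85, adjusted p = 0.088) and without cleavage replicate 1 (1.44, adjusted p = 0.083).

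**Figure D2:**
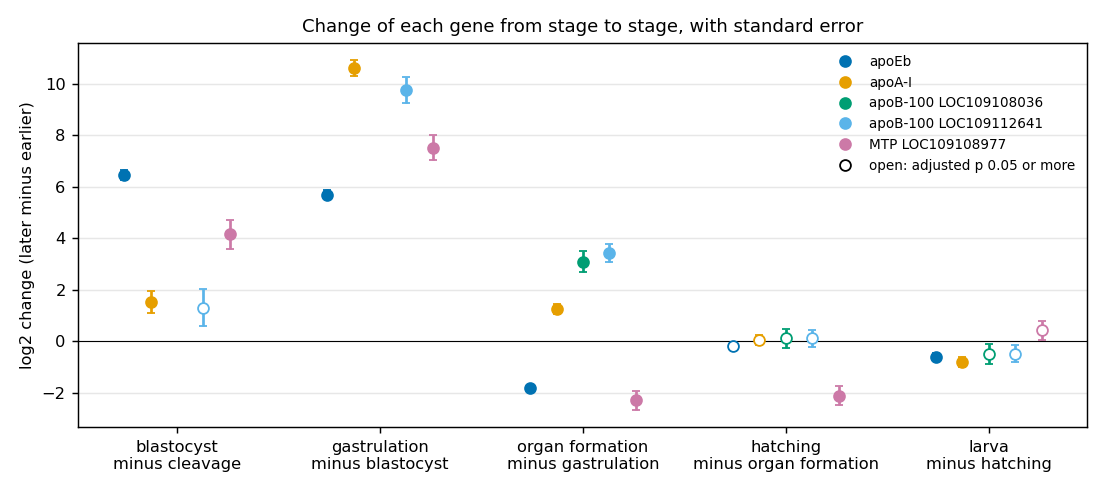
Log2 change of each gene in each step, later stage minus earlier, with a standard error derived from the F statistic of edgeR's test. Filled points had an adjusted p under 0.05. LOC109108036 is left out of the first 2 steps, where its blastocyst libraries held no counts. In organ formation minus gastrulation apoEb and MTP lie below 0 and apoA-I and both apoB copies above it, and in hatching minus organ formation MTP alone is filled.

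Over wider spans, which share stages with the steps above, the same 2 patterns stood side by side. In gastrulation minus cleavage all 5 genes rose, beside 49.2% of features that rose and 22.2% that fell. In larva minus gastrulation 3 rose and 2 fell, beside 39.6% and 26.7%. There apoB LOC109112641 gave a log2 change of 3.06 (SE 0.36) and LOC109108036 one of 2.70 (SE 0.40), while apoEb gave -2.62 (SE 0.15) and MTP -3.98 (SE 0.40). Without larva replicate 3 these were 3.37 (SE 0.21) and 3.07 (SE 0.14) for the apoB copies, -2.72 (SE 0.17) for apoEb and -4.86 (SE 0.20) for MTP. ApoA-I was 1.39 times as high (log2 change 0.47, SE 0.20, adjusted p = 0.042), a call that was lost in 18 of 28 alternatives, among them 15 of the 18 fits that left out a library. Without larva replicate 3 it was 0.59 (SE 0.18, adjusted p = 0.0060). In larva minus organ formation none rose and apoEb, apoA-I and MTP fell, beside 24.1% of features that rose and 19.9% that fell. MTP then fell by 1.68 on the log2 scale (SE 0.37, adjusted p = 0.0018), and by 2.54 without larva replicate 3. Without that library apoEb and apoA-I gave -0.86 (SE 0.15) and -0.63 (SE 0.18). The smaller falls of apoEb (-0.79, SE 0.14) and apoA-I (-0.77, SE 0.20) did not pass under the RPKM denominators (adjusted p = 0.20 and 0.31).

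How the libraries are scaled moves all features together in some of these comparisons. In gastrulation minus blastocyst the median log2 change of all features was 0.75 with TMM, and the RPKM denominators moved it by -0.81 and library totals alone by -0.65. The rises of the 5 genes, at 5.70 and above, were far beyond either shift. In hatching minus organ formation the RPKM denominators moved the median by 0.40, and the change of apoEb, which was not called, turned to 0.21. In that step MTP fell under every alternative.

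Compared per length, on the deposited RPKM, the order of the genes also turned at organ formation. ApoEb was first of the 5 at cleavage, blastocyst and gastrulation, with a mean of 580 ± 97.4 RPKM at gastrulation, against 207 ± 40.2 for apoA-I, 72.1 ± 15.3 for MTP, 9.42 ± 2.41 for apoB LOC109112641 and 5.73 ± 1.17 for apoB LOC109108036 (SD, n = 3). At organ formation apoA-I was first with 613 ± 44.2 RPKM, followed by apoEb with 205 ± 36.7, the apoB copies with 124 ± 15.3 and 60.4 ± 0.864, and MTP last with 18.4 ± 3.57. No neighbours in these orders overlapped at gastrulation or organ formation. The order of the means was the same at hatching and in the larva. At hatching apoB LOC109112641, with 152 to 228 RPKM, overlapped with apoEb, with 224 to 255 RPKM. In the larva it spanned 60.9 to 186 RPKM and overlapped with both apoEb and the other apoB copy.

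Ratios of counts within a library do not depend on its scaling. MTP over apoB LOC109112641 had a log2 ratio of 1.23, 1.20 and 0.73 at gastrulation and of -5.18, -4.35 and -4.45 at organ formation. It was -6.69, -7.32 and -6.61 at hatching and -7.09, -7.25 and -3.89 in the larva. For each count of this apoB copy MTP thus gave 0.0395 counts at organ formation, against 2.08 at gastrulation. Of the hatching and larva libraries only larva replicate 3 lay above the organ formation libraries. ApoEb over apoA-I was 2.12, 2.08 and 2.19 at gastrulation, -1.15, -0.83 and -0.89 at organ formation, -1.25, -1.15 and -1.14 at hatching and -1.10, -1.27 and -0.47 in the larva. Since these pairs were formed from genes with known profiles, the ratios are given with no test.

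The 2 apoB copies moved nearly together. The log2 ratio of LOC109108036 over LOC109112641 was -1.64, -1.69 and -1.88 at gastrulation, -2.26, -1.98 and -1.96 at organ formation, -2.01, -2.16 and -2.03 at hatching and -2.02, -2.07 and -2.45 in the larva. Organ formation minus gastrulation gave a difference of -0.33 (exact two-sided permutation test, p = 0.1, the smallest that 3 against 3 libraries allow, and 0.3 adjusted over 3 steps). The other differences were 0.00 for hatching minus organ formation (exact p = 1.0) and -0.11 for larva minus hatching (exact p = 0.6). A permutation test of F among the 4 stages over 12 libraries, with 100000 resamples, gave p = 0.0372. The p rose above 0.05 without any 1 of 6 libraries, and was 0.154 without gastrulation replicate 1 and 0.126 without gastrulation replicate 2. From the RPKM, the length the authors used for LOC109112641 was 2.05 times that for LOC109108036, so the counts of the longer model are the higher for that reason too, and the RPKM ratio is the smaller.

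**Figure D3:**
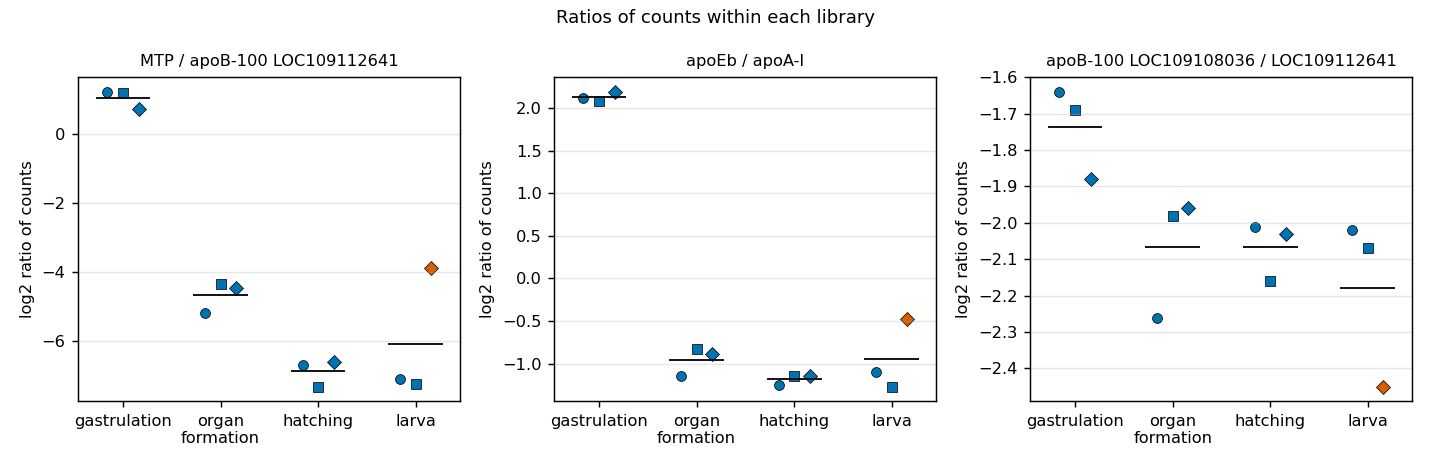
Log2 ratio of counts within each library from gastrulation to the larva, for MTP over apoB LOC109112641, apoEb over apoA-I and the 2 apoB copies; circles, squares and diamonds are replicates 1, 2 and 3, bars are stage means and larva replicate 3 is in orange. The first 2 ratios drop by organ formation to a mean of -4.66 and -0.96, against 1.05 and 2.13 at gastrulation, and the copy ratio spans -2.45 to -1.64 over all 12 libraries.

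Together the 5 genes took 2.87e-04% of all counts at cleavage and 0.0139% at blastocyst. They took 0.695% ± 0.0151 at gastrulation, 1.37% ± 0.163 at organ formation, 1.38% ± 0.212 at hatching and 0.997% ± 0.402 in the larva (SD, n = 3). In the larva replicates 1, 2 and 3 held 1.18%, 1.27% and 0.536%. The apoB copies alone gave 0.950% at hatching and 0.899% at organ formation. For all apolipoprotein genes, those described here included and MTP left out, the share was 0.861% at gastrulation and 2.49% at organ formation. It was 2.72% at hatching and 2.13% in the larva.

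Most other apolipoprotein genes rose in gastrulation minus blastocyst and again in organ formation minus gastrulation, as apoA-I and the apoB copies did. Of 56 features that symbol or product name put in this list outside the 5 genes, 46 were tested. In blastocyst minus cleavage 4 rose and 2 fell, with a median log2 change of 0.00 against 0.06 for all features. Over all features 15.8% rose and 6.52% fell. In gastrulation minus blastocyst 35 rose and 4 fell, with a median of 5.68 against 0.75, beside 44.4% and 22.3% of all features. In organ formation minus gastrulation 30 rose and 3 fell, with a median of 1.55 against 0.25, beside 28.1% and 19.8% of all features. In hatching minus organ formation 13 rose and 8 fell, with a median of 0.20 against -0.01, beside 17.4% and 12.2% of all features. Under the RPKM denominators 15 rose and 4 fell, with a median of 0.62 against 0.40. In larva minus hatching 7 rose and 4 fell, with a median of -0.20 against 0.00, beside 5.32% and 6.13% of all features. Without larva replicate 3 these counts were 3 and 5, and without hatching replicate 1 they were 3 and 2. Without blastocyst replicate 1 none fell in blastocyst minus cleavage. Among the 31 of these genes with a mean of 10 CPM or more in some stage, the highest mean was at blastocyst for 3, at gastrulation for 2, at organ formation for 6, at hatching for 12 and in the larva for 8. The pattern of names also took in apool and apoob, whose products are annotated as apolipoprotein O like and MICOS subunit MIC26 and are proteins of mitochondria.

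The further apoB genes had the course of the 2 described above. Apoba had 135 ± 17.5 CPM at gastrulation, 1680 ± 403 at organ formation, 1670 ± 403 at hatching and 1210 ± 455 in the larva (SD, n = 3). LOC109108421 had 91.9 ± 12.2, 1450 ± 195, 1510 ± 432 and 1150 ± 697 CPM at the same stages. Larva replicate 3 held 701 CPM of apoba and 352 CPM of LOC109108421, against 1370 and 1490 CPM in replicate 1. LOC109066388 and LOC109079274 were lower, with 587 ± 130 and 293 ± 70.8 CPM at hatching. Each of these 4 rose in gastrulation minus blastocyst, with adjusted p from 1.3e-05 for LOC109079274 to 2.6e-09 for apoba, and had no call in the last 2 steps.

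The A-I genes and apoa2 LOC109106250, which encode proteins of HDL, rose in gastrulation minus blastocyst as well. The A-I-2-like genes LOC109055542 and LOC109093190 had 2890 ± 222 and 2200 ± 200 CPM at hatching, against 906 ± 170 and 666 ± 112 CPM at gastrulation. They rose also in the last part of this span, with log2 changes of 0.63 (adjusted p = 0.0080) and 0.49 (adjusted p = 0.030) in hatching minus organ formation. Apoa1b had its highest mean at organ formation with 749 ± 16.5 CPM. In the larva replicate 3 held 823 CPM of it, against 368 and 341 CPM in replicates 1 and 2. Larva minus hatching gave a log2 change of -0.39 (adjusted p = 0.43), and of -0.94 (adjusted p = 2.2e-04) without larva replicate 3. Apoa2 (LOC109106250) had 286 ± 33.8, 643 ± 39.9, 652 ± 89.0 and 322 ± 125 CPM from gastrulation to the larva and was the gene most like apoA-I (r = 0.998).

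The C genes, which act on lipoprotein lipase and on receptor uptake in mammals, had their highest mean at hatching, but none of the 3 named here passed the test in larva minus hatching (adjusted p = 0.23 for apoc1, 0.35 for LOC109058394 and 0.92 for LOC109058458). Apoc1 (LOC109058449) had 738 ± 44.8 CPM at hatching, against 424 ± 88.9 CPM at gastrulation. LOC109058394, another apoC-I gene, had 796 ± 29.2 CPM at hatching, against 110 ± 17.9 CPM at gastrulation. In the larva these 2 genes had 588 ± 77.5 and 696 ± 36.4 CPM. The apoC-II gene LOC109058458 had 1.44 ± 0.0465 CPM at gastrulation, 116 ± 4.91 at organ formation, 200 ± 6.02 at hatching and 196 ± 26.6 in the larva, with a log2 change of 0.79 (SE 0.10, adjusted p = 1.6e-05) in hatching minus organ formation.

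ApoE and apoA-IV genes split among themselves. Of the apoEb-like genes, LOC109057792 had 11.7 ± 3.46 CPM at blastocyst and 378 ± 41.8 at gastrulation, and unlike GeneID 109058451 went on to 958 ± 115 at hatching. LOC109057787 and LOC109111873 had 161 ± 72.5 and 98.9 ± 23.9 CPM in the larva, against under 1 CPM at gastrulation. The apoA-IV-like gene LOC109111884 was highest at organ formation with 250 ± 9.64 CPM and fell to 39.2 ± 7.19 at hatching and 6.73 ± 4.99 in the larva. LOC109111736, of the same family, had 624 ± 246 CPM in the larva, against 66.9 ± 3.51 CPM at gastrulation. Its rise in larva minus hatching (log2 change 0.59, adjusted p = 0.042) was not called without larva replicate 3 (log2 change 0.20, adjusted p = 0.39).

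The apoD genes and most apoL genes with 10 CPM or more in some stage stood outside both patterns. The apoL3-like gene LOC109068604 was the exception and was highest at gastrulation, like apoEb and MTP. It had 0.618 ± 0.299 CPM at blastocyst, 20.8 ± 0.184 at gastrulation and 3.26 ± 0.301 at organ formation. The apoD genes, lipocalins, LOC109081219 and LOC109081220, had 63.4 ± 49.7 and 71.3 ± 60.8 CPM in the larva, against 8.23 ± 0.432 and 8.99 ± 1.29 CPM at hatching. Larva replicate 3 held 121 and 141 CPM of them, yet their rise in larva minus hatching passed also without it, with log2 changes of 2.05 (adjusted p = 1.1e-05) and 1.99 (adjusted p = 6.8e-04). The apoL6-like gene LOC109103381 was present from the start, with 190 ± 5.10 CPM at cleavage and 206 ± 7.74 at blastocyst, and fell to 39.5 ± 6.37 at gastrulation (log2 change -2.38, adjusted p = 8.9e-11) and 0.845 ± 0.34 at organ formation.

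**Figure D4:**
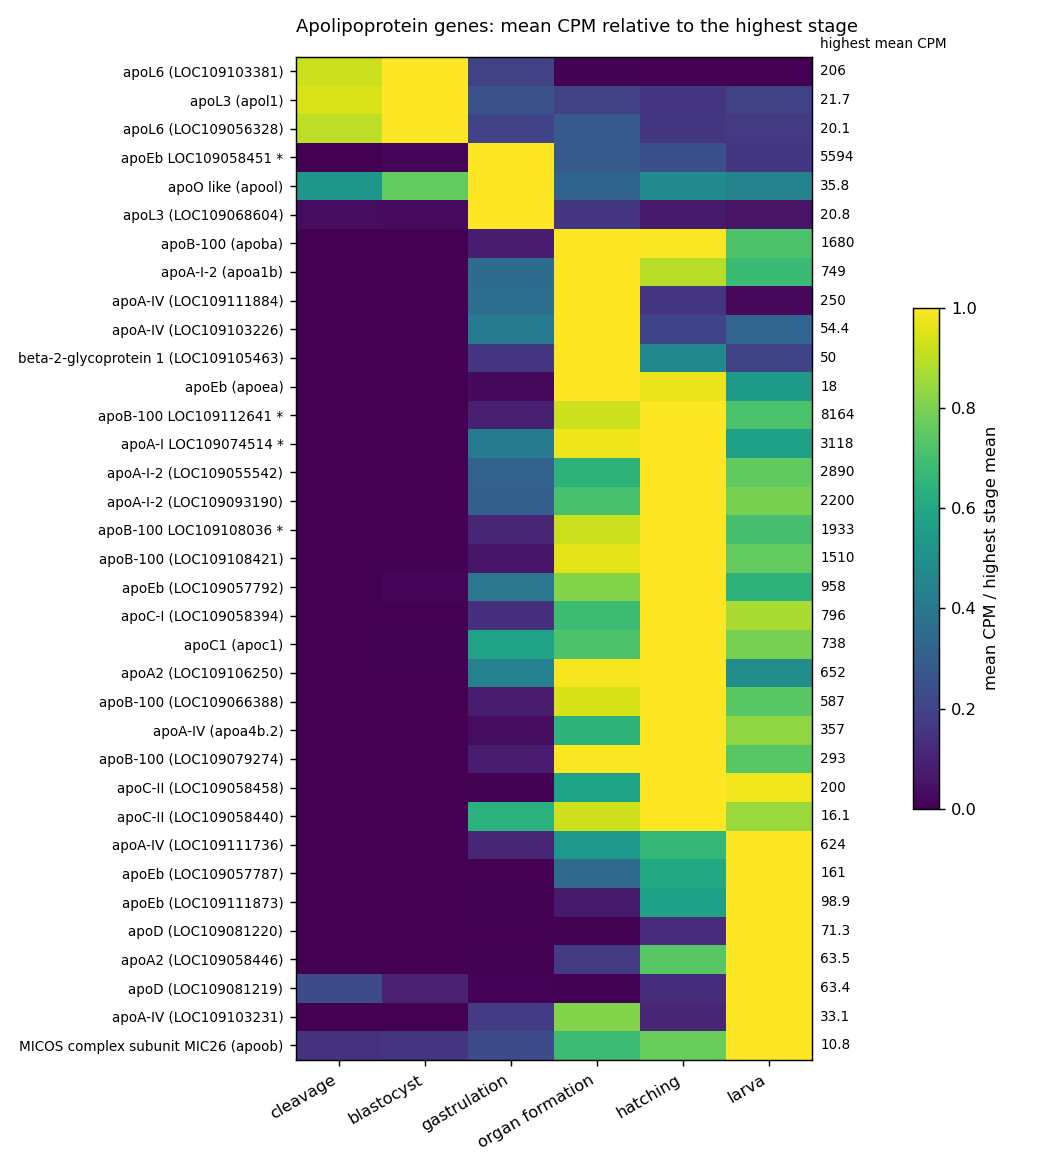
Mean CPM at each stage divided by the highest stage mean, for the 31 other genes of the apolipoprotein list with a stage mean of 10 CPM or more and for the 4 apolipoproteins described here (asterisks); the number at the right is the highest mean CPM. ApoEb GeneID 109058451 is 1 of few rows brightest at gastrulation, while apoB, apoA-I and C rows and apoa2 LOC109106250 are brightest at organ formation or hatching, and apoa2 LOC109058446 and the apoD rows in the larva.

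Genes that help to assemble lipoproteins did not all move with MTP. Of 36 tested genes of this list outside the 5, 21 rose and 2 fell in gastrulation minus blastocyst (median log2 change 1.72 against 0.75 for all features). Over all features 44.4% rose and 22.3% fell. In organ formation minus gastrulation 12 rose and 10 fell (median -0.12 against 0.25), beside 28.1% and 19.8% of all features. Under library totals alone the list counts of that step were 14 and 10, with a median of 0.23 against 0.59 for all features. In gastrulation minus blastocyst 17 rose and 8 fell under the RPKM denominators (median 0.75 against -0.06 for all features). There 17 rose and 6 fell under library totals (median 1.07 against 0.10). Without blastocyst replicate 3 it was 18 and 4. Counts were 7 and 9 in hatching minus organ formation (median -0.01, as for all features), beside 17.4% and 12.2% of all features. Under the RPKM denominators they were 14 and 4, where the median of all features was 0.40. In larva minus hatching they were 4 and 4 (median 0.09 against 0.00), beside 5.32% and 6.13% of all features. Without larva replicate 3 the counts in larva minus hatching were 2 and 4. Over all fits that left out a library they ran from 1 (without hatching replicate 1) to 6 (without larva replicate 2) that rose, and from 2 (without hatching replicate 3) to 4 that fell. P4hb, the protein disulfide-isomerase that forms the small subunit of MTP, had 118 ± 10.6 CPM at blastocyst, 337 ± 17.0 at gastrulation, 459 ± 51.7 at organ formation, 350 ± 9.02 at hatching and 406 ± 88.2 in the larva. LOC109068570, annotated as group XIIB secretory phospholipase A2-like, whose zebrafish homolog acts in lipidation of apoB particles, had 86.2 ± 2.75, 260 ± 16.7, 257 ± 20.2 and 150 ± 38.8 CPM from gastrulation to the larva. It fell by 0.78 on the log2 scale (SE 0.17, adjusted p = 0.0052) in larva minus hatching, and by 0.61 (SE 0.15, adjusted p = 0.013) without larva replicate 3. Unlike MTP, neither of these had its highest mean at gastrulation.

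Among 26 tested genes of plasma lipid remodelling, 14 rose and 8 fell in gastrulation minus blastocyst (median log2 change 1.25 against 0.75 for all features). Over all features 44.4% rose and 22.3% fell. In organ formation minus gastrulation 15 rose and 2 fell (median 0.77 against 0.25), beside 28.1% and 19.8% of all features. In gastrulation minus blastocyst the list counts under the RPKM denominators were 9 and 10, with a median of 0.25 against -0.06 for all features. The balance of rises and falls in the list turned with the scaling, which moved the median of all features too. In organ formation minus gastrulation 10 rose without gastrulation replicate 1, and none fell without organ formation replicate 1. Lcat, which esterifies cholesterol on HDL, had 0.367 ± 0.297 CPM at blastocyst and 56.2 ± 8.16 at gastrulation, 47.7 ± 6.98 at organ formation and 83.8 ± 13.3 in the larva. The endothelial lipase-like gene LOC109086639 had 14.5 ± 3.5 CPM at gastrulation, against 133 ± 5.32 CPM at cleavage.

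Of 88 tested genes of lipoprotein receptors and cholesterol export, 39 rose and 20 fell in gastrulation minus blastocyst. That lay near the shares of all features, 44.4% that rose and 22.3% that fell. The median log2 change of 0.81 also lay near that of all features, 0.75. Rises and falls were closer in number under the RPKM denominators, 31 and 29 (median -0.06), and under library totals, 34 and 26 (median 0.15). The medians of all features were then -0.06 and 0.10. In hatching minus organ formation 31 rose and 3 fell, with a median of 0.87 against -0.01, beside 17.4% and 12.2% of all features. LOC109102823, annotated as ABCA1-like, a transporter that hands cholesterol to apoA-I, had its highest mean at gastrulation, like apoEb and MTP, with 6.27 ± 0.321 CPM at blastocyst, 304 ± 45.3 at gastrulation, 129 ± 8.46 at organ formation, 88.4 ± 1.90 at hatching and 55.5 ± 8.59 in the larva. The LRP1-like genes LOC109071630, LOC109071622 and LOC109048339, endocytic receptors that bind apoE in mammals, also had their highest mean CPM there. These means were 650 ± 50, 455 ± 18.3 and 252 ± 20.8 CPM. The 3 genes were already at 260, 106 and 69.4 CPM at cleavage and at 354, 156 and 94.8 CPM at blastocyst. Their log2 changes in gastrulation minus blastocyst were 0.88, 1.54 and 1.41. The RPKM denominators moved the median of all features in that step by -0.81. Whether these 3 genes are highest at gastrulation under other scalings was not tested.

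Vitellogenin-like genes, which encode the yolk precursor made by the mother, were at or below 1 CPM in every stage mean for both tested features. Of 53 tested genes of the regulators list, 29 rose and 13 fell in gastrulation minus blastocyst (median 0.96 against 0.75 for all features). Over all features 44.4% rose and 22.3% fell. Under the RPKM denominators the counts of the list were 21 and 18 (median 0.00 against -0.06 for all features). The forkhead gene LOC109109293, annotated as hepatocyte nuclear factor 3-gamma-like, had 4.86 ± 1.3 CPM at blastocyst, 252 ± 39.2 at gastrulation and 42.0 ± 3.15 at organ formation. Hnf1ba had 48.4 ± 4.46, 105 ± 13.9 and 18.3 ± 2.16 CPM at these stages. Srebf1 and srebf2, regulators of lipid and sterol synthesis, went opposite ways in gastrulation minus blastocyst. Srebf1 was highest at cleavage with 76.2 ± 5.95 CPM and had 73.8 ± 5.55 at blastocyst and 58.2 ± 4.73 at gastrulation (log2 change -0.34, adjusted p = 0.036). Srebf2 had 21.2 ± 3.03 CPM at blastocyst and 88.7 ± 12.4 at gastrulation (log2 change 2.07, adjusted p = 3.6e-10).

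The genes whose profile was nearest to each of the 5 were sought among 22537 named genes, by Pearson's r of log2(CPM + 1) over the 18 libraries. All points share 6 stages, and values of r near 1 mostly record a common step at gastrulation, so they are a description only. Nearest to apoEb were 2 keratin 18 genes, LOC109047943 (r = 0.998) and LOC109047942, and the atypical chemokine receptor 3-like gene LOC109084855. LOC109047943 had 66.2 CPM at blastocyst, 2670 at gastrulation and 661 at organ formation. Nearest to apoA-I after apoa2 were shha and LOC109112546, an alpha-1-antitrypsin homolog with 1740 CPM at organ formation, against 845 CPM at gastrulation. Nearest to apoB LOC109108036 were apoba, tfa (a transferrin) and LOC109068848. Nearest to apoB LOC109112641 were LOC109072467 (neuropilin-1a), LOC109068396 and apoba. Nearest to MTP after its copy were LOC109047303, a keratin 19-like gene, and LOC109102111, an ADP/ATP translocase. Among the 5 genes themselves r was 0.999 between the apoB copies, 0.988 and 0.987 between apoA-I and each of them, 0.940 between apoEb and MTP, and 0.745 and 0.755 between MTP and the apoB copies.

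In the RefSeq gene table of assembly ASM1834038v1, apoEb GeneID 109058451 lies next to apoc1 (LOC109058449), with apoa2 (LOC109058446) and the apoA-IV-like gene LOC109111736 within 3 genes on either side. These neighbours differed in their course. ApoEb fell after gastrulation, whereas apoc1 had 424, 533, 738 and 588 CPM from gastrulation to the larva, LOC109111736 had 66.9, 333, 415 and 624 CPM and apoa2 LOC109058446 had 0.260, 10.8, 46.9 and 63.5 CPM. Of the 3 nearest genes on either side of MTP, apoA-I and each apoB copy, none that is in the deposited table is annotated as an apolipoprotein. Both apoB genes, LOC109108036 and LOC109112641, lie on the same chromosome, B20. They are called copies here for their shared annotation only, and whether they are a pair from the tetraploid genome was not tested.

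Markers of tissues that secrete lipoproteins are given beside these genes. They were sought by gene symbol alone, so a marker that was not found may be in the data under a LOC symbol. Not all of the markers found moved with the 5 genes, and their part in the results was not tested. Of 4 markers fixed for the yolk syncytial layer only gata6 was found, with 315 to 435 CPM at gastrulation, 97.2 to 118 at organ formation, 51.8 to 56.0 at hatching and 31.0 to 51.1 in the larva. Of 10 liver markers 5 were found, and their summed level was 321 to 428 CPM at gastrulation, 2630 to 2730 at organ formation, 4570 at hatching and 1990 to 3290 in the larva. Tfa was the largest part of it from gastrulation to the larva. The liver markers fga and fgb had 0.31 ± 0.199 and 0.539 ± 0.159 CPM at gastrulation, against 181 ± 18.4 and 253 ± 14.7 at organ formation. The liver marker fabp10a was at 0 from cleavage to organ formation and 0.364 ± 0.409 CPM in the larva. Of 4 intestine markers 2 were found, as 3 genes, with a sum of 187 to 193 CPM at gastrulation, 529 to 580 at organ formation, 430 to 464 at hatching and 201 to 341 in the larva. From gastrulation on nearly all of it was fabp2, except in larva replicate 3, where fabp2 had 260 CPM and slc15a1a 77.8 CPM. Oocyte markers, 3 of 4 found, summed to 918 to 1010 CPM at cleavage and to 3.39 CPM or less from organ formation on.

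In larva replicate 3 the apoB and MTP genes lay far from the other larva libraries, in opposite directions. Both apoB copies were lower in it, by 3.87 times for LOC109108036 and 2.93 times for LOC109112641 relative to the mean of replicates 1 and 2, and MTP was 3.34 times higher. Of 48291 features at 1 CPM or more in the larva 6.65% were 2-fold or more below that mean and 4.63% were 2-fold or more above it. The 4 further apoB genes were 2.10 to 4.42 times lower, apoa2 LOC109106250 was 2.22 times lower and the second MTP gene was 3.12 times higher. Of 39 other apolipoprotein genes 8 were 2-fold or more below and 8 were 2-fold or more above, among them apoa1b at 2.32 times and the apoD genes at 3.48 and 3.90 times. ApoEb (1.10 times) and the apoC-I gene LOC109058394 (0.912 times) were close to the other libraries. The intestine marker slc15a1a, a peptide transporter, had 77.8 CPM in replicate 3, against 0.967 and 1.58 CPM in replicates 1 and 2, and tfa had 817 CPM, against 1720 and 1580 CPM. Whether these differences have a common source was not tested.

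**Figure D5:**
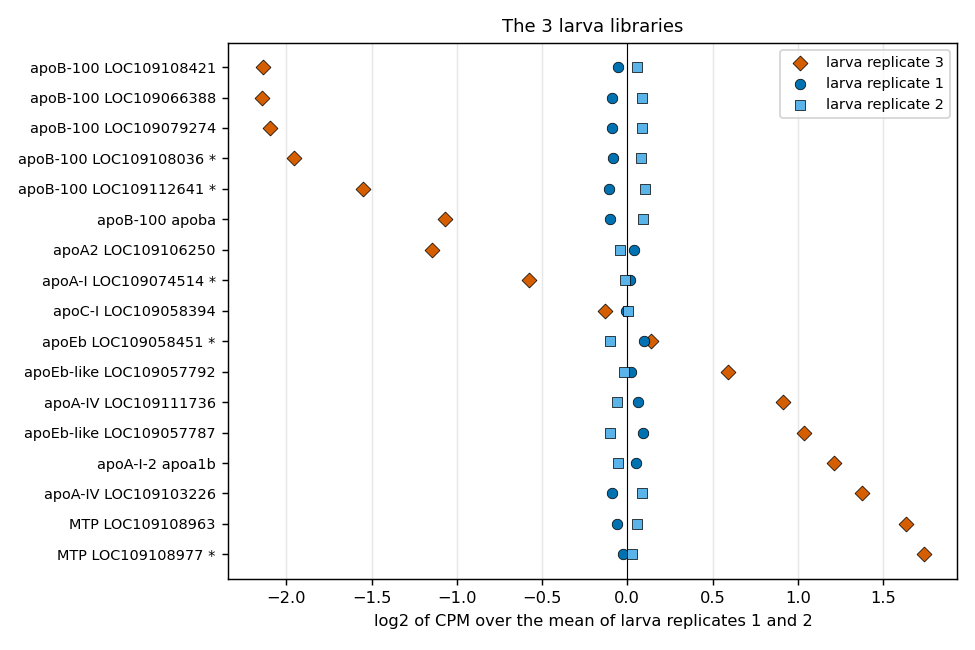
Log2 of the CPM in each larva library over the mean of larva replicates 1 and 2, for 17 genes chosen after their values were seen (asterisks mark the 5 genes described here). Replicate 3 lies left of 0 for the 6 apoB genes, near 0 for apoEb and right of 0 for both MTP genes.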

How the data were processed

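The authors deposited whole-number read counts per feature and library, and RPKM in a series table; the tools, per the submitters' processing notes, included featureCounts, HISAT2, edgeR and StringTie 1.3.3b. No label or header used here states their settings, the genome build or the annotation (not given in the sources used here). The 18 deposited count files equal the table. RPKM as the authors made it divides by a library size that is not the count total, and served for levels between genes and for alternatives.

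Counts were tested with edgeR 4.0.16 in R 4.3.3 (filterByExpr, TMM, 1 coefficient per stage, robust quasi-likelihood F test, all 18 libraries), with adjustment over 69265 features in each of 8 comparisons. Each SE is the absolute log2 change divided by the square root of the F statistic of that test. The code was tested on simulated data. Alternatives used limma 3.58.1 on log2(RPKM + 1) and log2(RPKM + 0.1), DESeq2 1.42.0, other scalings and filters, a replicate block and each library left out. No pairing of libraries by replicate number was seen: 0 of 45 same-number pairs had a correlation above 0.1 in their deviations from stage means. With 3 libraries per stage this cannot exclude a shared origin.

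Members and lists were chosen with earlier results of these data known. Named were the 5 genes, the 3 most alike to each, 4 per list by mean CPM and all apolipoproteins at 10 CPM or more; the text gives part of them. Of 58294 GeneIDs 36765 were found in RefSeq's table (ASM1834038v1), used for names and neighbours.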

Additional observations from a re-analysis of the deposited data

How the results depend on the processing

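Of 1119 pairs of a log2 change of the 5 genes and an alternative, 1073 kept their direction and side of the threshold, 35 lost the call, 3 gained it and 8 changed sign. All changes called in gastrulation minus blastocyst, organ formation minus gastrulation and gastrulation minus cleavage, and the fall of MTP in hatching minus organ formation, kept direction and call in all 28 alternatives. The replicate block changed no call of the 5 genes (apoEb in larva minus hatching gave -0.60, adjusted p = 0.011). The changes of sign were all in changes that were not called. In hatching minus organ formation apoEb gave 0.21 under the RPKM denominators and 0.23 in limma with either pseudocount. In larva minus organ formation the RPKM denominators gave 0.10 and 0.13 for apoB LOC109108036 and LOC109112641. Leaving out libraries gave -0.03 to 0.22 and -0.09 to 0.31 for these copies in hatching minus organ formation, and -0.43 to 0.71 for MTP in larva minus hatching. Calls lost under the RPKM denominators were apoEb in larva minus hatching (-0.52) and larva minus organ formation (-0.31) and apoA-I in larva minus organ formation (-0.29). In limma on log2(RPKM + 1) and log2(RPKM + 0.1) the lost calls were apoEb in larva minus organ formation (-0.30 in both) and apoA-I there (-0.31 in both) and in blastocyst minus cleavage (0.18 and 0.69). With 0.1 added apoEb (-0.53) and apoA-I (-0.76) in larva minus hatching were lost too, and with 1 added MTP in blastocyst minus cleavage (0.75). With 1 added apoA-I was called in hatching minus organ formation (0.45). With only the 2 stages compared, apoA-I in blastocyst minus cleavage (1.48) and larva minus gastrulation (0.32) and MTP in larva minus organ formation (-1.61) were lost. For apoA-I in larva minus gastrulation no filter gave 0.42 and a filter of 1 CPM in 3 libraries 0.40. DESeq2 called apoB LOC109112641 in blastocyst minus cleavage (1.25). Leaving out libraries gave 0.85 to 1.88, -0.91 to -0.66 and 0.31 to 0.59 for apoA-I in blastocyst minus cleavage, larva minus hatching and larva minus gastrulation, and 0.73 to 1.86 for apoB LOC109112641 in blastocyst minus cleavage.

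Of 251 tested genes in the 6 gene lists, outside the 5 genes, 33 rose and 21 fell in blastocyst minus cleavage. Over all features 15.8% rose and 6.52% fell in that step. The list counts were 34 to 52 and 7 to 25 when a library was left out, and 11 fell with no filter. In larva minus hatching 31 rose and 21 fell, beside 5.32% and 6.13% of all features. When a library was left out, these list counts were 13 to 37 and 10 to 24. The permutation p of the apoB copy ratio ran from 0.0186 to 0.154. Among all features, counts past the threshold ran in larva minus hatching from 1714 to 10273 that rose and 1880 to 5053 that fell, and in hatching minus organ formation from 9807 to 22214 and 2872 to 12716. In blastocyst minus cleavage they ran from 3671 to 16177 and 2293 to 7684. The cause of these differences was not tested. With 3 libraries per stage from pooled RNA, small changes such as that of apoA-I in larva minus gastrulation are at the limit of what these data can call, and at cleavage and blastocyst the apoB copies rest on 0 to 35 counts per library.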
